A study of Mus musculus with 27 samples.

Results

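The club cell secretory genes are a set of 7 genes named for the non-ciliated secretory cells of the mouse airway. They are Scgb1a1, Scgb3a1, Scgb3a2, Cyp2f2, Cbr2, Hp and Cxcl15, and not all are confined to those cells. Members were found by gene symbol in the annotation of an Illumina bead array. For 6 of the 7 genes the annotation gave a probe, 9 probes in all of 45281 on the array. No probe used here carries the symbol Scgb3a2, and that gene was not analysed here. Detection in enough arrays kept 8 of the 9 probes, and all 6 genes, among 22958 probes of 11945 genes.

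RNA came from male fetuses of the cross C57BL/6 X BALBc, from the left lung lobe on day 18 of gestation. Control fetuses had developed in vivo in females that ovulated naturally. The fetuses named EG in vitro had been moved as blastocysts derived in vitro into pseudo-pregnant recipients, females made receptive without conceiving. Those named EG in vivo had been moved in the same way as blastocysts derived in vivo. All 3 groups are fetuses of 1 cross with no genetic change labelled, and both EG groups share the transfer. The 3 pools of each group were run on 3 technical arrays apiece. Neither the number of fetuses in a pool nor whether pools were separate litters is in the labels, so p-values measure the spread between these pools, which may be partly technical. Fewer cells of a type and less RNA per cell cannot be told apart in such bulk tissue.

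Club cells line the bronchioles, secrete proteins into the airway lining fluid, detoxify inhaled compounds and act as progenitors of the airway epithelium. They arise from airway progenitors under Notch signalling, and their secretory genes are switched on late in gestation, with the transcription factors NKX2-1, FOXA and C/EBP known to act on the best studied of them. Of the members, Scgb1a1 encodes the major club cell secretory protein, and Scgb3a1 a related secretoglobin of the larger airways. Cyp2f2 encodes a cytochrome P450 that oxidises naphthalene, and Cbr2 a carbonyl reductase abundant in mouse lung. Hp encodes haptoglobin, a haemoglobin-binding protein made chiefly by the liver and also by lung epithelium. Cxcl15, also called lungkine, encodes a neutrophil-attracting chemokine of the lung epithelium.

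The 250 bases before the start site are shown for the 4 members matched in the RefSeq promoter table of build GRCm38.p6. Scgb1a1, Scgb3a2 and Hp were not matched. Sequences run 5′ to 3′ on the strand of the gene, with matches to any of 7 letter strings in capitals.
Scgb3a1, chr11:49663345-49663594, plus strand: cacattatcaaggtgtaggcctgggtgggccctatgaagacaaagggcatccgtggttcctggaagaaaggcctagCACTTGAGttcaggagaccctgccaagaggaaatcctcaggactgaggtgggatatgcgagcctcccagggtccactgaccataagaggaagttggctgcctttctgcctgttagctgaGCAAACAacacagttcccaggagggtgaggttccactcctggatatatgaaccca
Cyp2f2, chr7:27119705-27119954, plus strand: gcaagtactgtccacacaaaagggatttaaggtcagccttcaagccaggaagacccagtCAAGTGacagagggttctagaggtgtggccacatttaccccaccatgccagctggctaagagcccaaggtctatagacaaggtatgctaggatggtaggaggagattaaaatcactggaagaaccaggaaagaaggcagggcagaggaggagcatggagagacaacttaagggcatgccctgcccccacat
Cbr2, chr11:120732022-120732271, minus strand: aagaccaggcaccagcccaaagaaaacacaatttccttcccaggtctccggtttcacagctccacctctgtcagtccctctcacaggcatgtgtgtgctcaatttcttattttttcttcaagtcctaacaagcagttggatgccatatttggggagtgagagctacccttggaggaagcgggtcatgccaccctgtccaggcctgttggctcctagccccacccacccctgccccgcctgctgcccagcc
Cxcl15, chr5:90794284-90794533, plus strand: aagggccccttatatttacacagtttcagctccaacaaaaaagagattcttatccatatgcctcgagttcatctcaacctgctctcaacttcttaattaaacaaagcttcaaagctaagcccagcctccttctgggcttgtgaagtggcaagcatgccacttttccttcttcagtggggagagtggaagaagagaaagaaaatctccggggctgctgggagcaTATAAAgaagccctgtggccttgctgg
The strings, searched on both strands, were CACTTG and CTCAAG for NKX2-1, TGTTTAC and TGTTTGC for FOXA, TTNNGCAA for C/EBP, AGAACA for the half-site of the glucocorticoid receptor, and TATAAA. Counted from the start site, Scgb3a1 held CACTTG from -174 to -169, overlapping CTCAAG on the other strand from -172 to -167, and TGTTTGC on the other strand from -55 to -49. Cyp2f2 held CACTTG on the other strand from -191 to -186. Cxcl15 held TATAAA from -27 to -22, and Cbr2 held none of the strings in this window. Of 32851 promoters of the same length, 11.6% held CACTTG, 13.3% CTCAAG, 3.17% TGTTTAC, 4.30% TGTTTGC, 9.56% TTNNGCAA, 16.1% AGAACA and 12.4% TATAAA. A match describes the letters and does not show binding.

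Median signals were between 113 and 170 per array, 19762 to 23449 probes were detected, and technical arrays of a pool correlated at 0.989 to 0.996. In all groups replicate 3 gave dimmer arrays, with a mean median signal of 117 to 122 against 145 to 167 in the other pools. Xist, an RNA of the inactive X chromosome, was at 10.90 on the log2 scale in Control replicate 1, which goes against the male label of that pool, at 5.45 and 5.41 in EG in vitro replicates 1 and 2, and between 4.56 and 4.83 and undetected in the other 6 pools. Main results are therefore also given without Control replicate 1. Levels below are log2 signals after background correction and quantile normalization, and changes are differences of those levels between groups.

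Scgb1a1 was the member with the largest change. In the deposited, unnormalized tables its mean signal was 30106, 31926 and 26731 in the 3 control pools, 226, 307 and 138 in EG in vitro, and 263, 305 and 489 in EG in vivo. After normalization the controls stood at 14.71, 14.93 and 14.96, EG in vitro at 6.68, 7.18 and 6.13, and EG in vivo at 7.01, 7.24 and 9.19. Every control pool lay above every EG pool, with no overlap, and EG in vivo replicate 3 stood above the other EG pools. The group levels were 14.87 ± 0.13 (SD, n = 3 pools), 6.66 ± 0.52 and 7.81 ± 1.20. Against controls, Scgb1a1 fell by 8.20 ± 0.53 (SE) in EG in vitro (limma, adjusted p = 1.32e-05) and changed by -7.05 ± 0.53 in EG in vivo (adjusted p = 2.92e-05). As folds these are 295-fold lower, with a 95% interval of 127 to 685, and 133-fold lower, with an interval of 57.3 to 309. Without EG in vivo replicate 3 the change in EG in vivo was -7.74. Without Control replicate 1 the changes were -8.28 and -7.13.

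In the 9 control arrays the Scgb1a1 probe gave 25799 to 32404, which is 72.9% to 93.7% of the brightest probe on the same array, and ranked 6 to 62 from the top of 45281 probes. Whether the signal was still proportional to RNA there was not tested. At the low end the EG in vitro arrays gave 0.409% to 0.904% of the top, near the array medians. The size of the change, but not its call, depended on the background: with median scaling it was -8.19 in EG in vitro after background correction and -7.14 without it, and -7.08 and -6.52 in EG in vivo. The deposited mean signals, neither corrected nor normalized, had ratios of 132 for EG in vitro and 83.9 for EG in vivo.

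**Figure D1:**
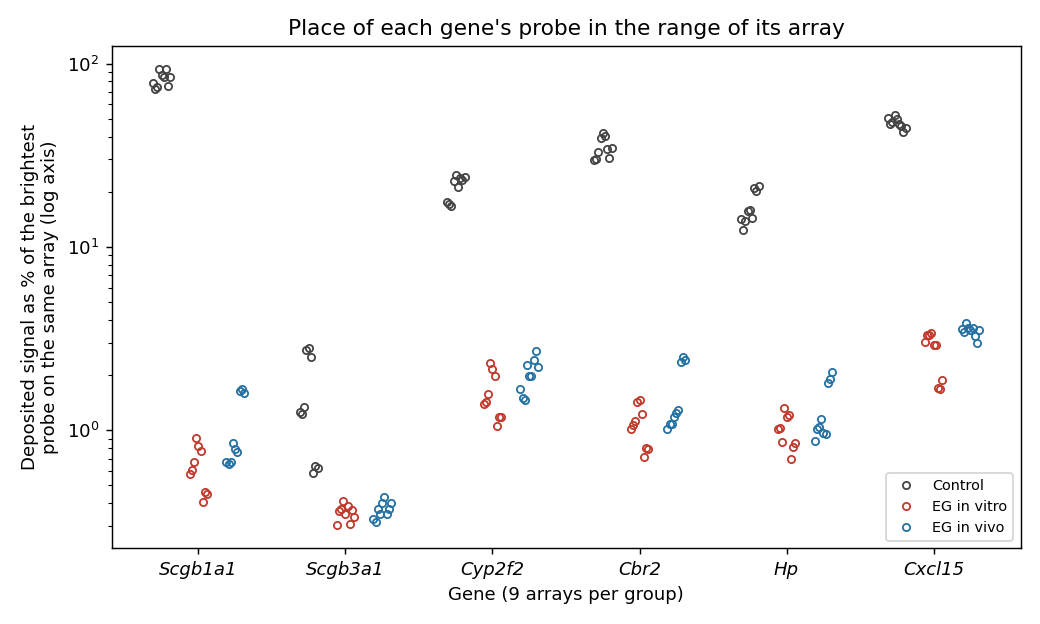
Deposited signal of each gene's probe as a percentage of the brightest probe on the same array, on a log axis, with 1 circle per array and 9 arrays per group and no background subtracted. Scgb1a1 in controls sits at 72.9% to 93.7% of the top and Cxcl15 at 42.3% to 52.4%, while Scgb3a1 in controls spans 0.588% to 2.81%.

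Scgb3a1 behaved differently at the low end. Its probe was detected on 9 of 9 control arrays and on 0 of 9 arrays of either EG group. It therefore passed the detection filter through the control group alone and had to differ there in detection. Mean signals of the control pools were 510, 975 and 196, and those of the EG pools lay between 105 and 150. The control levels of 8.52, 9.62 and 6.94 were spread more widely than those of any other member, while the EG in vitro pools were at 4.67, 4.59 and 4.65 and the EG in vivo pools at 4.58, 4.77 and 4.65. Control replicate 3, the lowest control, still lay above all 6 EG pools. With group means of 8.36, 4.64 and 4.66, Scgb3a1 was at least 8.90-fold lower in EG in vitro (adjusted p = 0.000855) and at least 8.25-fold lower in EG in vivo (adjusted p = 0.000964). The bound sets the control mean against the lowest signal called detected on each EG array, or the probe's own value where that was higher, and it holds for the corrected scale with an offset of 16. The deposited signals, from which no background was subtracted, had ratios of 4.51 and 4.26. Fitted changes, which depend on the offset, moved from -3.09 without Control replicate 2 to -4.43 without Control replicate 3 in EG in vitro, and from -3.07 to -4.41 in EG in vivo. The second probe of the gene, ILMN_2658200, was detected on 1 of 27 arrays and was not tested.

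Both xenobiotic enzymes of the set were lower in the EG groups. Cyp2f2 stood at 12.50, 12.88 and 13.32 in controls, at 8.51, 9.09 and 8.66 in EG in vitro, and at 8.76, 9.09 and 9.86 in EG in vivo. It fell by 4.14 ± 0.32 in EG in vitro (17.7-fold, adjusted p = 2.65e-05) and changed by -3.66 ± 0.32 in EG in vivo (12.7-fold, adjusted p = 5.79e-05). The gap between the lowest control pool and the highest EG pool was therefore wider than the spread inside any group. Cbr2 stood at 13.41, 13.72 and 13.83 in controls, at 7.92, 8.26 and 7.86 in EG in vitro, and at 8.05, 8.15 and 9.85 in EG in vivo. It changed by -5.64 ± 0.43 in EG in vitro (adjusted p = 2.66e-05) and by -4.97 ± 0.43 in EG in vivo (31.4-fold lower, adjusted p = 5.94e-05). On the normalized scale EG in vivo replicate 3 was again the highest EG pool for both genes. In deposited signal it was the highest for Cbr2 (725), but for Cyp2f2 (731) it lay below EG in vitro replicate 2 (793). The ratios of unnormalized signals were 13.5 and 10.6 for Cyp2f2 and 33.1 and 23.3 for Cbr2, and without Control replicate 1 the Cbr2 changes were -5.77 and -5.09. Without EG in vivo replicate 3 the Cbr2 change in EG in vivo was -5.56.

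Cxcl15 had the smallest standard error of the 6 members. Its control pools were at 14.11, 14.08 and 14.29, its EG in vitro pools at 9.85, 9.71 and 9.46 and its EG in vivo pools at 10.14, 9.97 and 10.32. It fell by 4.49 ± 0.15 in EG in vitro (22.5-fold, adjusted p = 1.35e-06) and changed by -4.02 ± 0.15 in EG in vivo (16.2-fold, adjusted p = 2.29e-06). Control signals reached 42.3% to 52.4% of the array top. The deposited signals of its EG in vivo pools were 1422, 1352 and 980, so replicate 3 was the highest of these only after normalization.

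Hp was measured by 3 kept probes that all fell. On the brightest probe, ILMN_2944824, the controls were at 12.16, 12.28 and 13.14, EG in vitro at 7.71, 8.05 and 7.90, and EG in vivo at 7.87, 7.77 and 9.48. All EG pools lay below all controls, and replicate 3 was the highest control and the highest EG in vivo pool. The fall was 24.9-fold in EG in vitro, a change of -4.64 ± 0.45 (adjusted p = 9.27e-05), and 17.8-fold in EG in vivo, a change of -4.15 ± 0.45 (adjusted p = 0.000186). The other probes, ILMN_2668509 and ILMN_2668510, changed by -4.49 and -4.59 in EG in vitro and by -4.32 and -4.27 in EG in vivo. The probes differed in how far single pools stood apart: the bright probe exceeded the mean of the others by 2.68 in EG in vivo replicate 3, against 1.68 and 1.10 in replicates 1 and 2 of that group, and by 2.04 in Control replicate 3, against 1.43 and 1.56.

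**Figure D2:**
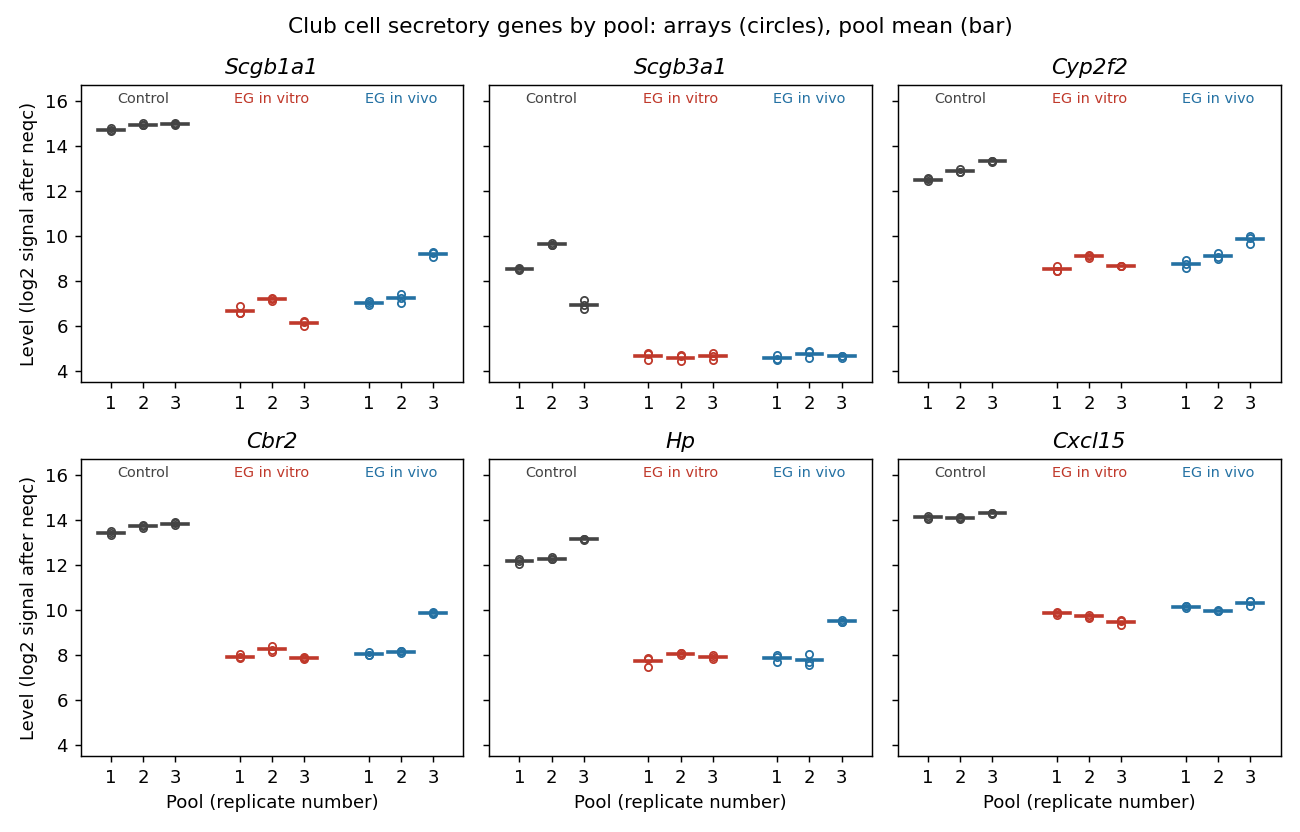
Level of each gene on its representative probe, as log2 signal after background correction and normalization, with 1 circle per array and a bar at the mean of the 3 arrays of a pool. Control pools lie above every EG pool for all 6 genes, and EG in vivo replicate 3 is the highest EG pool for Scgb1a1, Cyp2f2, Cbr2, Hp and Cxcl15.

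All 6 measured genes were called lower in both EG groups, at a median of -4.56 in EG in vitro against -4.09 in EG in vivo, also with Scgb3a1 at its bound, and for all 6 the pools did not overlap with controls. Of the 6, Scgb3a1 passed the filter only because of its controls, and the other 5 were detected on all 27 arrays. Beside this, 23.0% of all 11945 genes were called lower in EG in vitro, against 21.2% in EG in vivo, at a median change of 0.03 and 0.04 over all genes, and 28.8% and 25.2% had all EG pools below all control pools. Both comparisons share the control pools. Taken number by number, Scgb1a1 in EG in vitro differed from the control of the same number by -8.03, -7.75 and -8.82, and in EG in vivo by -7.70, -7.70 and -5.77.

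**Figure D3:**
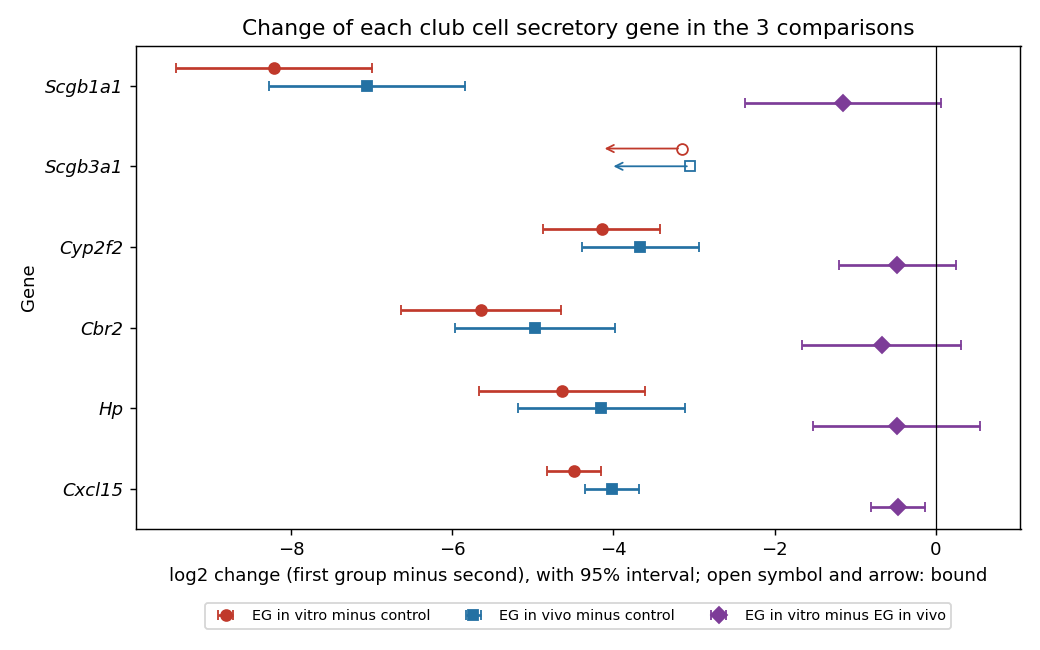
Change of each gene in log2 units with its 95% interval from limma, 3 pools per group, for both comparisons with Control and for EG in vitro minus EG in vivo, with Scgb3a1 as an open symbol and arrow at its bounds of -3.15 and -3.04. For the other 5 genes the intervals against Control lie below 0, while between the EG groups 4 of 5 intervals include 0.

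Between the EG groups no member was called, and limma called 0 of 11945 genes, or 0% of them, with 153 genes at an unadjusted p under 0.05. Over the other settings tried, 0 to 2 probes were called there. The difference for Scgb1a1 was -1.15, with a 95% interval from -2.37 to 0.07, which includes 0 and also differences nearly as large as its lower bound. By number, the difference was -0.33 and -0.06 between pools numbered 1 and 2, and -3.06 between those numbered 3. Without EG in vivo replicate 3 it was -0.46. The differences were -0.67 for Cbr2, -0.48 for Cyp2f2 and -0.48 for Hp, with intervals that include 0. Of these, Hp differed by -0.16 and 0.29 between pools numbered 1 and 2 and by -1.58 between those numbered 3. Cxcl15 was the 1 member at an unadjusted p under 0.05: EG in vitro minus EG in vivo was -0.47, with an interval from -0.80 to -0.13 and no overlap of pools (limma, unadjusted p = 0.0118, adjusted p = 1.00). Its differences by number were -0.29, -0.26 and -0.86. Scgb3a1 was undetected in both groups.

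EG in vivo replicate 3 lay above its group mean by 1.38 for Scgb1a1, 1.17 for Cbr2, 1.11 for Hp, 0.62 for Cyp2f2 and 0.18 for Cxcl15. For 3 of the members it exceeded both fellow pools by at least 1 log2 unit, as it did for 121 of 11945 genes (1.01%). In that pool the summed level of the 11 ciliated cell markers was 4197, against 2498 and 2458 in replicates 1 and 2, and that of the 10 alveolar type II cell markers 28811, against 21870 and 23461. That pool was also the highest of its group for general epithelial, granulocyte, erythroid, neuroendocrine and basal markers. For alveolar type I markers (31122, against 29556 and 31264) and macrophage markers (3934, against 3792 and 4121) it was not. Nor was it for hepatocyte markers (239, against 349 and 1360). Whether the makeup of the pool had a part in its member levels was not tested. Deviations of the 9 pools from their group means correlated at 0.97 between Scgb1a1 and Cbr2, 0.84 with Hp, 0.82 with Cyp2f2 and 0.66 with Cxcl15. None is given for Scgb3a1, which 6 of the 9 pools did not detect. These correlations describe 9 pools that share their normalization. For Scgb1a1, Cbr2, Hp and Cyp2f2 the largest deviation was that of EG in vivo replicate 3, so that this pool weighs most in them.

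**Figure D4:**
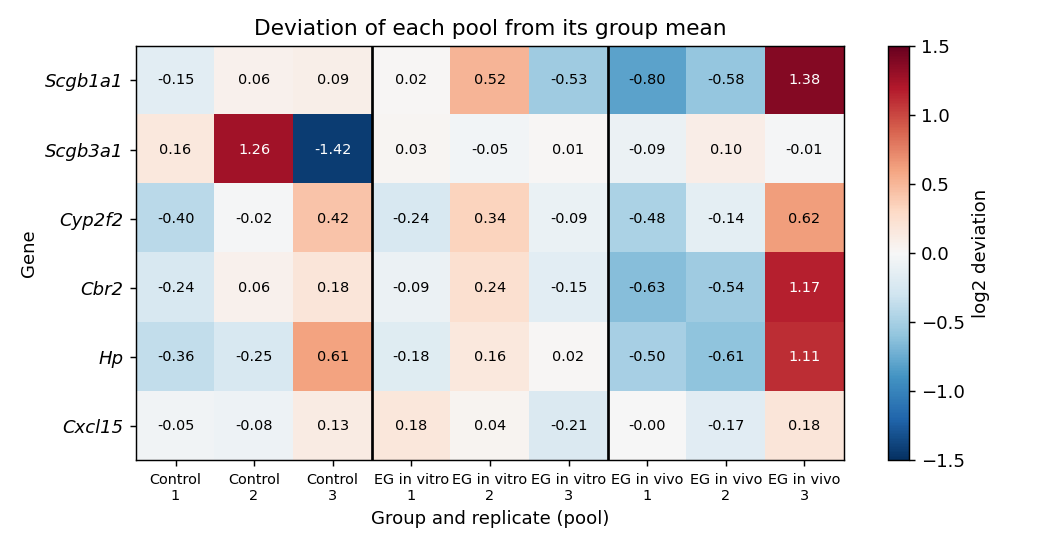
Difference of each pool from the mean of its group in log2 units, for 6 genes and 9 pools, from blue (below) to red (above). EG in vivo replicate 3 is high for Scgb1a1 (1.38), Cbr2 (1.17) and Hp (1.11), and the spread of Scgb3a1 lies in the controls, from -1.42 to 1.26.

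Most other genes tested of the club cell and airway secretory programme were lower as well. Of 19 tested, 15 were called lower and none higher in each EG group, at medians of -2.10 in EG in vitro (-1.91 with undetected genes at their bound) and, for EG in vivo, -1.74 (-1.71). Of these 19, 4 passed the detection filter through controls alone, which leaves 12 lower of 15. The share of all genes called lower was 23.0% in EG in vitro, against 21.2% in EG in vivo. The largest called changes in EG in vitro were those of Retnla, a secreted resistin-like protein (-5.37), Aox3, an aldehyde oxidase (-4.26), Nupr1, a stress-responsive nuclear protein (-3.44), and Cyp4b1, a lung P450 (-2.98). In EG in vivo the same genes changed by -4.99, -4.27, -3.33 and -2.93. Lypd2 (-1.23), Aldh1a7 (0.70), Bpifb1 (-0.47) and Gsta4 (-0.38) did not pass in EG in vitro. Aldh1a7, a retinal dehydrogenase relative, was at 0.92 in EG in vivo (95% interval 0.14 to 1.71, adjusted p = 0.063). Of 12 secretoglobin genes on the array, 3 could be tested. Of these, Scgb3a1 and Scgb1c1 passed the filter through controls alone, so that they had to differ in detection. Scgb1c1 was detected on 9 control arrays and 1 array of each EG group, and at least 14.3-fold lower in EG in vitro.

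Relatives of the enzymes and of the chemokine were called in part. Of 9 Cyp2 genes tested, with the member Cyp2f2 counted, 8 were lower in EG in vitro, against 7 in EG in vivo. The shares called lower over all genes were 23.0% and 21.2%. Through controls alone 4 of the 9 passed the filter, which leaves 5 lower of 5 in EG in vitro, against 4 in EG in vivo. Cyp2e1, an ethanol-oxidising P450 that passed through controls alone and was detected on no EG in vitro array, was at least 14.4-fold lower there. Among 4 carbonyl reductase genes, Cbr2 and Dcxr (-2.54 in EG in vitro) were lower, and Cbr1 (0.32) and Cbr3 (-0.02) did not pass. Of 6 CXC chemokines tested, 3 were lower in EG in vitro, Cxcl15, the scavenger-receptor ligand Cxcl16 (-1.01) and the stromal ligand Cxcl12 (-0.38), and in EG in vivo Cxcl15 and Cxcl16.

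Transcription factors and Notch genes known to govern airway secretory cells changed less. Of 18 tested, 6 were lower and 1 higher in EG in vitro, and 6 lower and none higher in EG in vivo. Over all genes, 44.8% were called in either direction in EG in vitro, against 43.4% in EG in vivo. The medians of the 18 were -0.29 and -0.35. Hey1, a Notch target, changed by -1.75, Cebpa by -1.45, Klf5 by -1.28 and Elf5 by -1.26 in EG in vitro, and Cebpd by 0.61. In EG in vivo, Hey1 changed by -1.62, Cebpa by -1.39, Elf5 by -1.06 and Klf5 by -0.97. Cebpa was detected on 0 of 3 arrays of EG in vitro replicate 3. In the EG in vivo pools it was detected on 2, 1 and 2 arrays, so its changes are limited by the detection floor. For the lung and airway factors Nkx2-1 (-0.09), Foxa2 (-0.02) and Foxa1 (0.29), no change passed the test in EG in vitro. In single pools Nkx2-1 lay between 13.15 and 13.60 in controls, 13.25 and 13.46 in EG in vitro, and 13.06 and 13.54 in EG in vivo, so that the groups overlapped.

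Markers of other lung cells moved beside the members. Ciliated cell markers were lower for 10 of 11 in each EG group, alveolar type II markers for 9 of 10 and alveolar type I markers for 9 of 9, at medians of -1.98, -3.76 and -2.62 in EG in vitro. Controls alone carried 2, 1 and 1 of these genes through the filter. Over all genes, 23.0% were called lower in EG in vitro, against 21.2% in EG in vivo. In either direction, 44.8% and 43.4% of all genes were called. General epithelial markers were lower for 6 of 12, at a median of -0.42, and their summed level was 26554 to 28280 in controls, 19324 to 19657 in EG in vitro and 19420 to 22296 in EG in vivo. The summed level of the 6 members was 66070 to 85680, 1579 to 2027 and 2114 to 4357 in the same groups. Neuroendocrine markers passed in 1 gene each way of 2 tested, basal markers in 1 upward of 2, with the defining basal gene Krt5 undetected in all groups, erythroid markers in 1 downward of 4, and macrophage markers in 9 downward of 11 in EG in vitro, against 10 in EG in vivo. Resp18, the neuroendocrine gene called lower, passed the filter through controls alone and had to differ in detection. Krt14, the basal gene not called, and 1 macrophage gene also passed through controls alone. The part of the cell makeup in the member changes was not tested.

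Because Hp is also made outside the airway, other plasma proteins and cell markers were set beside it. Of 14 liver plasma and acute-phase genes tested, 4 were lower in EG in vitro, against 5 in EG in vivo, beside 23.0% and 21.2% of all genes. In EG in vitro they were Trf, the iron carrier transferrin (-4.26), Saa3, an acute-phase apolipoprotein detected there on 2 of 9 arrays (at least 7.91-fold lower), and 2 genes detected there on none, Lrg1 (at least 5.74-fold lower) and Itih4 (at least 2.66-fold lower). Saa3, Lrg1 and Itih4 are among 4 of the 14 that passed the filter through controls alone and had to differ in detection. That leaves 1 lower of 10 in EG in vitro, against 2 in EG in vivo. Of 8 hepatocyte markers, limma called 0 in either comparison, and Alb and Fgb were undetected in every group. Their summed level was 173 to 453 in controls, 311 to 3861 in EG in vitro and 239 to 1360 in EG in vivo. Markers of granulocytes, which also carry haptoglobin, were lower for 8 of 9 genes in EG in vitro, against 7 in EG in vivo. The shares over all genes were 23.0% and 21.2%. Of the 9, 5 passed the filter through controls alone and had to differ in detection, though not all 5 were called. The other 4 were lower in both EG groups. The whole list had summed levels of 6232 to 7822, 416 to 761 and 482 to 694. Their part in the Hp change was not tested.

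**Figure D5:**
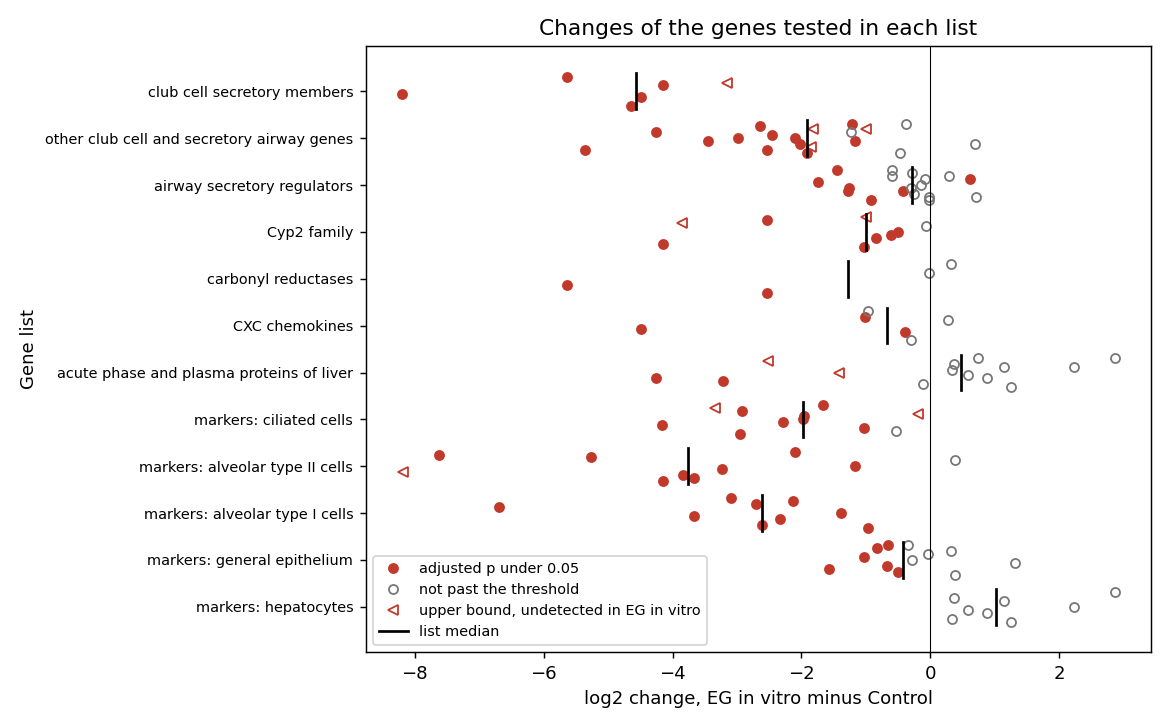
Change of each tested gene in EG in vitro against Control in log2 units, by gene list, with filled points past an adjusted p of 0.05, open points not past it, open triangles at the bound of genes undetected in EG in vitro and a bar at the list median with those bounds. The 5 detected members sit between -8.20 and -4.14, while the regulators centre at -0.29 and the hepatocyte markers at 1.01.

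The genes whose 9-pool profiles came nearest to each member, by Euclidean distance of mean-centred levels among 11571 genes, were of several cell types. Nearest to Scgb1a1 were Inmt, a methyltransferase (distance 1.10), Sftpd, surfactant protein D (1.28), the water channel Aqp5 (2.40), the paraoxonase Pon1 (2.44) and the chitinase-like Chil1 (2.47). Aqp5 was detected on 1 of 9 arrays in EG in vitro, and Pon1 and Chil1 on none, so their distances depend on the detection floor. Inmt changed by -7.66 in EG in vitro against -6.97 in EG in vivo, and Sftpd by -7.62 and -6.86. Sntn, of ciliated cells (0.91), and the protease inhibitor Spink5 (1.22) came nearest to Scgb3a1, all undetected in the EG groups. Ace (0.55) and Sult1a1 (0.61) came nearest to Cyp2f2, Retnla (0.82) and Msln (0.91) to Cbr2, Igfbp6 (0.48) and Scnn1a (0.53) to Hp, and Dpt (0.49) and Lamp3 (0.54) to Cxcl15.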

How the data were processed

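Probe intensity came from 27 arrays, mapped to 3 groups of 3 pools by their labels. The intensity values were deposited without normalization, and the lowest was 84.0, so no background had been subtracted. A detection p-value per probe and array stands beside them, per the file headers. The authors' processed matrix also holds intensity on a linear scale: its column medians were 138.4 to 138.6 and it ranked probes as the deposited signals did (Spearman correlation 1), so scale and lack of centring are known from the values, and it has no ratio direction. Its tool and the scanner software are not given in the sources used. Every value column was mapped to a sample.

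Signals were background corrected and normalized with neqc in limma 3.58.1 (R 4.3.3; offset 16). A probe was kept if any group had a detection p below 0.05 on 6 or more of its 9 arrays. Technical arrays were averaged per pool, and lmFit and eBayes were fitted over 9 pools (6 residual and 2.41 prior degrees of freedom), with Benjamini-Hochberg adjustment over all 22958 probes and a threshold of 0.05. The number of arrays limits the precision. For a gene with several probes, the highest mean was used. Of 45281 probes, 34885 had 1 symbol, 18 several and 10378 none, and 34807 matched the RefSeq table. The array tables name no build, so coordinates are given for the RefSeq promoters alone.

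Same-numbered pools of different groups deviated together in all 9 pairs (correlations from 0.50 to 0.83), which met the criterion for pairing, so the replicate block was tried. Different-numbered pools 1 and 2 also correlated, at 0.35 to 0.77, and pairs with replicate 3 at -0.81 to -0.49, so the check sets replicate 3 apart and does not tell numbers 1 and 2 apart. Of each other list, up to 4 genes with the largest change among those called in EG in vitro were named, and 5 nearest profiles for Scgb1a1 and 2 for each other member; further genes were named after their values were seen. Members and lists were chosen with earlier results of these data known. Other settings tried were the authors' normalized values, median scaling with and without background correction, an offset of 50, other filters, all arrays with pool as a random block, array weights, the median probe, replicates 1 and 2 alone, and each pool left out.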

Additional observations from a re-analysis of the deposited data

How the results depend on the processing

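All 6 members kept their direction and their call in both comparisons with controls under the 20 alternatives, 120 values each. Several alternatives, such as other filters, the blocks or a pool left out of the third group, cannot move a fitted change. The 120 values are therefore not separate checks. They include Scgb3a1, which passed the filter through controls alone. Leaving out 1 pool at a time moved Scgb1a1 from -8.46 to -7.94 in EG in vitro and from -7.74 to -6.65 in EG in vivo. Without background correction its change was -7.14 in EG in vitro. The fitted Scgb3a1 change there, -3.72, no bound since the gene was undetected, was -2.66 with an offset of 50, -1.82 on the authors' normalized values and -1.92 with median scaling and no background correction. Fitting the replicate block left each change as it was, with an adjusted p of 1.42e-05 for Scgb1a1 in EG in vitro, and changed no member's call. Between the EG groups no member was called under any of the alternatives, and 6 of 120 values changed sign (each pool left out in turn gave -0.79 to 0.070 for Hp and -0.069 to 0.025 for Scgb3a1): with array weights Cbr2 was at 0.046, Cyp2f2 at 0.10 and Hp at 0.10, with replicates 1 and 2 alone Hp was at 0.062, without EG in vivo replicate 3 Hp was at 0.070, and without EG in vivo replicate 2 Scgb3a1 was at 0.025. With array weights the Scgb1a1 difference was -0.10, and the cause was not tested. Scgb3a1 in the EG groups was at the detection limit, so signal over background limits its values.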
